A study of Mus musculus with 5 samples.

Results

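The nuclear complex I genes are the rows of the count table whose symbol starts with Nduf and whose counts exceeded 5 in 75% or more of the mice in any group. Of the 36716 genes in the table, 52 had such a symbol and 49 met the count rule, which 12757 genes met in all. The 3 left out were Ndufa11b, with a highest count of 9 in any mouse, Ndufs6b, with a highest count of 20, and Ndufab1-ps, with a highest count of 3. Ndufs6b came nearest to the rule, with 4 mice over 5 counts in its best group where 6 were needed. Ndufs5 was just inside it, passing in 3 of the 19 groups.

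Gene expression was measured by 3′ tag RNA sequencing of upper back skin from 153 female SKH-1 mice, a hairless but immunocompetent strain, aged 7 to 8 weeks. Of these, 9 mice were naive, and 18 groups of 8 mice were sampled 24 h or 7 d after treatment. Control mice received 10 μL of PBS on intact skin. Intact nTiO2, intact nZnO and intact nAg mice received 500 μg of nanosized titanium dioxide, zinc oxide or silver in the same volume. Scratched mice were brushed with 12 strokes of a metal brush and then given PBS, scratched nTiO2, nZnO and nAg mice were brushed and then given the nanomaterial, and scratched only mice were brushed and given nothing. No gene was deleted or introduced in any group, and the naive mice carry no time point. The biopsy is whole skin, so fewer cells of a type and less RNA per cell cannot be told apart. The mice were housed 4 per cage, and which mice shared a cage is not given in the sources used here.

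Complex I, the NADH dehydrogenase of the inner mitochondrial membrane, takes electrons from NADH, passes them to ubiquinone and pumps protons, and is the largest complex of the respiratory chain. Its N module binds and oxidises NADH, its Q module reduces ubiquinone, and its membrane arm has a proximal part (PP module) and a distal part (PD module). The Nduf genes are nuclear. They code for the core subunits that carry the flavin and the iron-sulfur clusters, for accessory subunits around them and for assembly factors that build the complex and leave it. The remaining core subunits of the membrane arm are encoded by the mitochondrial mt-Nd genes. Beneath mouse skin lies the panniculus carnosus, a layer of skeletal muscle, a tissue rich in mitochondria.

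The 49 genes comprised 10 subunits of the N module, 6 of the Q module, 9 of the PP module, 11 of the PD module, the acyl carrier protein Ndufab1 and 8 assembly factors, Ndufaf1 to Ndufaf8. The other 4 were Ndufa4, now counted as a subunit of cytochrome c oxidase, its relative Ndufa4l2, a gene known to be induced by hypoxia, and the processed pseudogenes Ndufs5-ps and Ndufa12-ps. The pseudogenes are shown first because each is nearly identical to a stretch of a subunit gene's transcript, so that tags from that stretch are hard to assign.

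Ndufs5, a PP module subunit, lies on chromosome 4 from 123606481 to 123612002 (GRCm39, minus strand), and its copy Ndufs5-ps lies on chromosome 16 from 42775994 to 42776312 (plus strand) within Zbtb20. The transcript of Ndufs5 (554 bases) and its copy aligned over 319 bases with 2 substitutions, an identity of 99.4%. Ndufa12, an N module subunit, lies on chromosome 10 from 94034582 to 94057450, and Ndufa12-ps on chromosome 5 from 130217236 to 130217637 within Rabgef1. Here 402 of the 1255 bases of the Ndufa12 transcript aligned, also with 2 substitutions, an identity of 99.5%. The windows of 30 bases below, read from the genome on the strand of each transcript, show differing bases in capitals. They hold both substitutions of the Ndufs5 pair and 1 of the 2 of the Ndufa12 pair, and were chosen because gene and copy can be told apart there within the aligned stretch. The Ndufa12 window lies 751 bases from the end of its transcript and 24 from the end of the copy.
Ndufs5, chr4:123609763-123609792 (minus strand): TaagaacgccgctcggtgccacgcAtttga
Ndufs5-ps, chr16:42776074-42776103 (plus strand): CaagaacgccgctcggtgccacgcGtttga
Ndufa12, chr10:94056670-94056699 (plus strand): accactagaaagaagattcatgaatgggtT
Ndufa12-ps, chr5:130217584-130217613 (plus strand): accactagaaagaagattcatgaatgggtC

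The deposited counts divided these pairs unequally. Ndufs5 held 933 counts over all mice and Ndufs5-ps 21672, and the copy took 87.0% to 100% (median 96.0%) of the pair in a mouse. Ndufa12 held 44137 counts and Ndufa12-ps 14195, and here the copy took 17.4% to 30.1% (median 24.4%). The low level of Ndufs5 and the levels of both copies are therefore uncertain. Of the windows of 62 bases, the length of the sequenced read, taken every 6 bases over the last 400 bases of each transcript, 44 of 57 had another exact copy in the genome for Ndufs5 and 19 of 43 for Ndufs5-ps. For Ndufa12 it was 0 of 57 and for Ndufa12-ps 21 of 57, so in that pair only the copy shared its end windows. For Ndufs3, a core Q module subunit, it was 44 of 57. For Ndufb11, of the PD module, it was 10 of 57, and for each of the other genes outside the 2 pairs it was 4 or fewer.

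A motif of each of 4 factors known to act on nuclear mitochondrial genes was searched on both strands in the 250 bases before the annotated start of each gene. The core motif of NRF1, GCGCATGC, was found in 3 of 49 genes (6.1%), Ndufa13, Ndufa6 and Ndufaf4, and in 3.0% of 12533 genes searched in all. It overlaps its own reverse complement, GCATGCGC, by 6 bases. The ETS motif CCGGAAGTG (1.59% of all genes), the YY1 motif AAGATGGCG (0.85%) and the ERR motif TCAAGGTCA (0.37%) were found before none of the 49. These are matches of letters in a window and not measured binding. The 3 windows that hold the NRF1 core, in capitals, are shown in the direction of transcription.
Ndufa13, chr8:70355971-70356000 (minus strand): aatcgaggatGCGCATGCgctctccagcaa
Ndufa6, chr15:82238556-82238585 (minus strand): ccgcggtagaGCATGCGCattgcagagccc
Ndufaf4, chr4:24897960-24897989 (plus strand): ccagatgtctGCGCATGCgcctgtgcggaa

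Totals ranged from 201053 to 4028559 counts among the mice (median 1226021), and RNA integrity numbers (RIN) were 7.7 to 9.9. Of all mice, 7 d control replicate 3 had the smallest library and 7 d scratched nTiO2 replicate 7 the biggest. The libraries were sequenced in 5 pools. Each 24 h group was divided over 2 of pools 1 to 3, 7 d control over pools 1 and 3, 7 d intact nTiO2 over pools 2 and 3 and all other 7 d groups over pools 4 and 5. The naive mice were in pools 1, 2 and 5. At 7 d the control group therefore shared no pool with the scratched groups, and scratching and pool cannot be told apart there. One 7 d intact nZnO mouse, replicate 7, has a treatment text that names scratching, and it was kept in the group of its name. The keratinocyte markers Krt5, Krt14, Krt1 and Krt10 summed to 3304 to 11660 CPM (counts scaled to a library of 1000000), with none at 0 in any mouse. The 16 skeletal muscle markers, such as the muscle actin Acta1 and the creatine kinase Ckm, summed to 97.0 to 20443 CPM, and Acta1 was above 0 in every mouse (lowest 11.9 CPM).

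The Nduf genes together took 1.2% to 1.66% (median 1.41%) of the counts of a mouse. CPM of 3′ tags takes no account of transcript length, since a transcript gives tags only near its end, and levels of genes are compared on that scale. The median of their mean levels was 241 CPM, against 27.4 CPM for all genes that met the count rule, and 35 of the 49 reached 100 CPM. Ndufa4 was the most abundant at 1687 CPM (1060 to 3360 over the mice). Ndufb8 of the PD module followed at 676 CPM, Ndufa6 of the N module at 620 CPM and Ndufc1 of the PP module at 610 CPM. Ndufs4, an N module subunit whose loss in mice gives a model of Leigh syndrome, was in the middle of the order at 241 CPM. The lowest were Ndufs5 at 4.73 CPM, Ndufa4l2 at 10.8 CPM and Ndufaf6 at 16.2 CPM.

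Levels differed more by role than by treatment. The median of the mean levels was 394 CPM in the PD module, 296 CPM in the N module, 274 CPM in the PP module, 210 CPM in the Q module and 41.9 CPM among the assembly factors. The highest assembly factor was Ndufaf2, which acts late in assembly, at 83.8 CPM, and 4 of the 8 lay under 30 CPM. Within a group the SD of log2 CPM had a median of 0.20 over the Nduf genes and 0.34 over all genes, from 0.14 for Ndufb10, a PD module subunit, to 0.57 for Ndufs5. The highest group mean of a gene was 1.27 times its lowest (median over the 49 genes).

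A score was formed for each mouse as the mean log2 CPM of the 49 genes. Group means lay between 7.35 ± 0.11 (SD, n = 8) in the 7 d scratched only group and 7.56 ± 0.07 (SD, n = 8) in the 7 d control group. This range of 0.21 on the log2 scale compares with a pooled SD of 0.11 among mice of a group. Naive mice had 7.43 ± 0.13 (SD, n = 9). At 24 h the control group stood at 7.50 ± 0.11 and the scratched group at 7.45 ± 0.09 (SD, n = 8 each), and neighbours in the order of the 19 means differed by less than their spread.

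**Figure D1:**
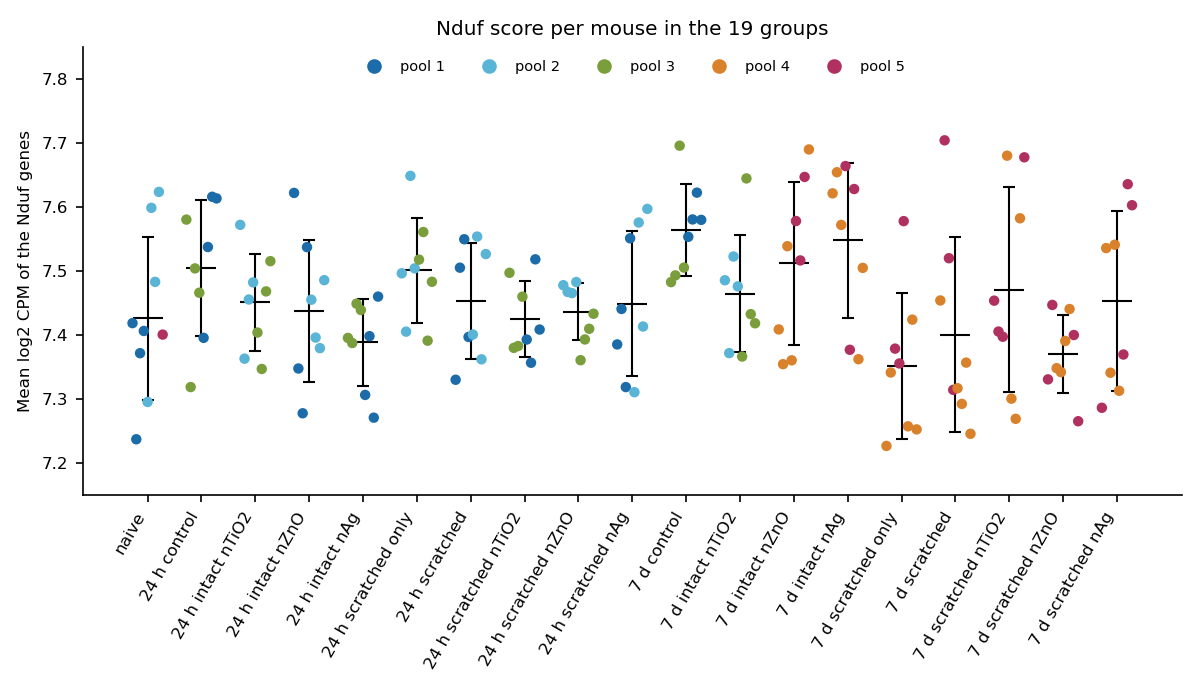
Mean log2 CPM of the 49 Nduf genes in each of the 153 mice (points, coloured by sequencing pool), with the group mean and SD (bars), in the 19 groups. The 7 d control group (mean 7.56) was highest and the 7 d scratched only group (mean 7.35) lowest, and the ranges of most groups overlapped.

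Pairwise tests between groups (26 comparisons, each over 48 or 49 Nduf genes) used the quasi-likelihood test of edgeR, where a called gene has an adjusted p under 0.05 and a log2 fold change of 0.33 or more in size. No Nduf gene was called in any of them. At an unadjusted p under 0.05 there were 119 Nduf results of 1256 tests, from 0 to 19 in a comparison, where 10.7% of the tests of all genes were under it. DESeq2 called 5, in 2 comparisons, and limma voom with quality weights called 0.

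The count of 0 is read against the share of all genes called in the same comparison. For scratched against control it was 3.39% at 24 h and 0% at 7 d. For scratched only against naive it was 2.93% at 24 h and 1.23% at 7 d, and for control against naive it was 0.692% at 24 h and 0.240% at 7 d. For scratched against intact skin under the same nanomaterial it was 2.15% at 24 h and 0.135% at 7 d for nTiO2, 5.33% and 0.944% for nZnO, and 1.51% and 0.611% for nAg. For a nanomaterial on intact skin against control it was 0% in the 3 comparisons at 24 h, and at 7 d it was 0% for nTiO2, 0.0442% for nZnO and 0.0859% for nAg. For a nanomaterial on scratched skin against scratched it was 0% in all these comparisons but nAg at 7 d, where it was 0.00835%. Between 7 d and 24 h it was 0% in control skin and 4.42% in scratched skin. Most of these shares correspond to fewer than 1 of 49 genes.

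**Figure D2:**
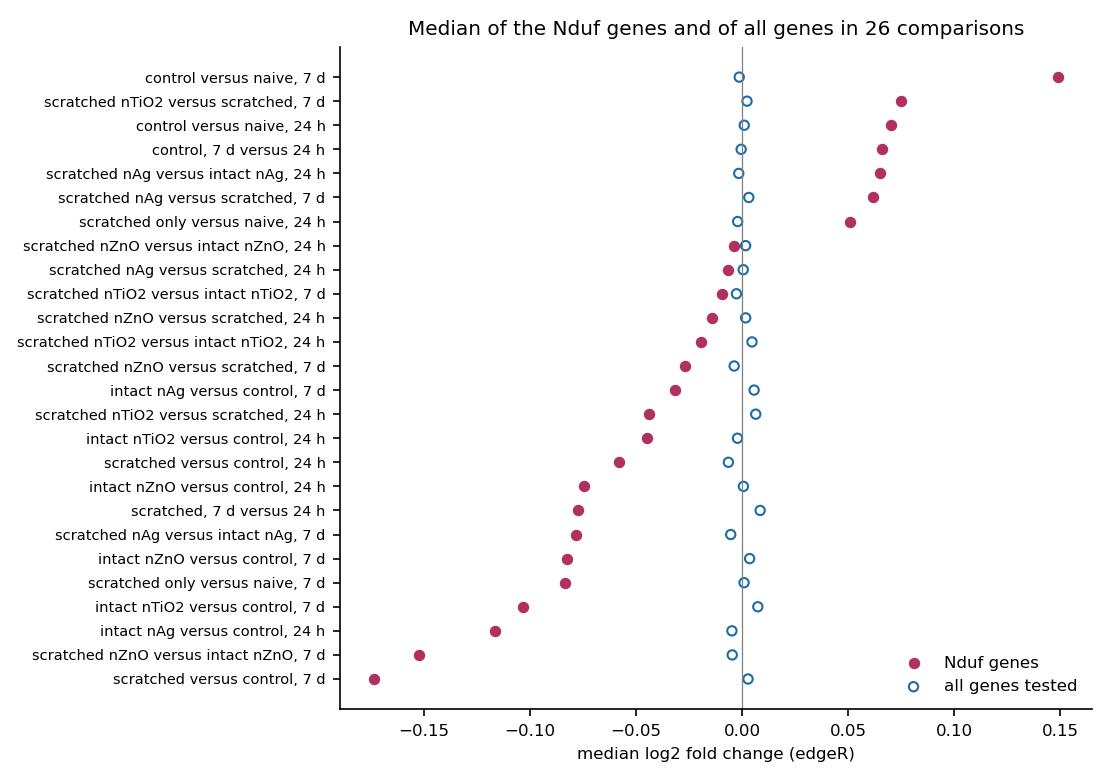
Median log2 fold change of the Nduf genes (filled) and of all genes tested (open) in the 26 comparisons. The Nduf median ran from -0.17 (scratched versus control, 7 d) to 0.15 (control versus naive, 7 d), while the median of all genes stayed near 0.

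In the comparison of the 7 d scratched group with the 7 d control group most Nduf genes had lower levels, though none was called. Their median log2 fold change was -0.17, against 0.003 for all genes, and 42 of 48 lay below 0. At an unadjusted p under 0.05, 19 of 48 were lower and 0 higher, where 5.60% of all genes were lower.

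Members of the PD module had the lowest values. All 11 lay below 0, with a median of -0.28, and 8 had an unadjusted p under 0.05. In the N module 9 of 10 lay below 0 (median -0.22) with 6 such genes, in the Q module 5 of 6 (median -0.18) with 1, and in the PP module 7 of 8 (median -0.15) with 2. The assembly factors lay nearest to 0, with a median of -0.04 and 6 of 8 below 0, and the 7 core subunits had a median of -0.07. No difference between modules was tested.

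Ndufb5, an accessory subunit of the distal membrane arm on chromosome 3 from 32791139 to 32805715, was at 369, 478 and 579 CPM (lowest, median and highest) in 7 d control mice and at 279, 334 and 493 CPM in 7 d scratched mice. The groups overlapped, but 5 of the 8 scratched mice lay below every control mouse. The log2 fold change was -0.45 (SE 0.12, 95% confidence interval -0.69 to -0.21, edgeR adjusted p = 0.216).

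Ndufb9, a PD module subunit that binds an acyl carrier protein, on chromosome 15 from 58805594 to 58814819, was at 507, 595 and 667 CPM in control mice and at 394, 442 and 602 CPM in scratched mice. Here 7 of 8 scratched mice were lower than all control mice, and the remaining one lay above the control median. The log2 fold change was -0.37 (SE 0.10, adjusted p = 0.221). For Ndufb8, on chromosome 19 from 44537011 to 44543939, the values were 662, 766 and 879 CPM in control mice and 496, 599 and 792 CPM in scratched mice. Again 7 of 8 scratched mice were below all control mice, and the log2 fold change was -0.34 (SE 0.10, adjusted p = 0.237). The last of the 4 genes with the smallest p was Ndufb11, the X-linked PD module subunit, on chromosome X from 20481563 to 20484457. It was at 464, 581 and 743 CPM in control mice and at 362, 427 and 638 CPM in scratched mice, with 5 of 8 scratched mice below all control mice and a log2 fold change of -0.41 (SE 0.12, adjusted p = 0.237). The annotation places Gm20538 on the strand of Ndufb8 and Gm49356 on that of Ndufb9. On the opposite strand lie Mrpl47 at Ndufb5, Mtss1 and Tatdn1 at Ndufb9 and Rbm10 at Ndufb11. Whether tags were counted by strand is not given in the sources used here. The levels of these 4 genes are uncertain to that extent. The same limit holds for other named genes that overlap annotated genes, among them Ndufb2, Ndufs6, Ndufb3, Ndufa3 and Ndufa13.

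DESeq2 called these same 4 genes, with adjusted p-values of 0.0222 for Ndufb5, 0.0202 for Ndufb9, 0.0254 for Ndufb8 and 0.0363 for Ndufb11, where it called 0.381% of all genes as lower. The call thus depended on the test, with nearly equal fold changes. DESeq2 adjusted p-values were 0.0401 for Ndufa7, Ndufb3 and Ndufs8 and 0.0418 for Ndufb2, whose fold changes were too small for a call.

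**Figure D3:**
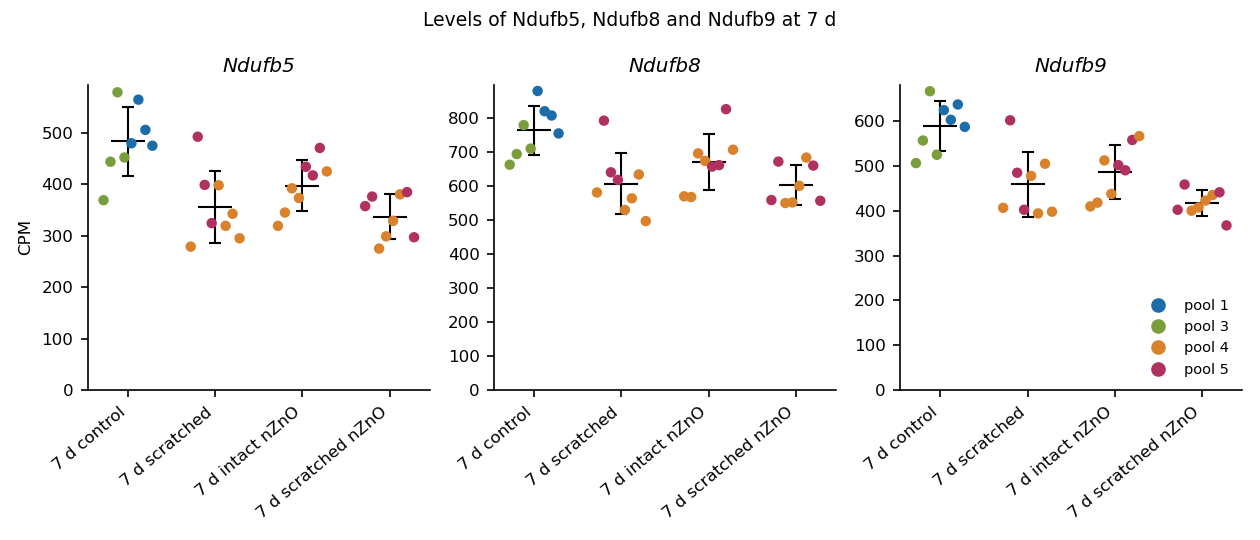
CPM of Ndufb5, Ndufb8 and Ndufb9 in each mouse of 4 groups at 7 d (points, coloured by pool), with mean and SD (n = 8 each). In all 3 genes most scratched mice lay below the control mice, with 1 scratched mouse of pool 5 near the control mean or above it, and the control mice are in pools 1 and 3 while the other groups are in pools 4 and 5.

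Other measures moved with this comparison. The summed skeletal muscle markers were at 1064, 9298 and 20443 CPM in 7 d control mice and at 121, 4203 and 20303 CPM in 7 d scratched mice, a median log2 fold change of -0.60 with 15 of 15 below 0 and 0 called. With the muscle score as covariate the Nduf median was -0.15, with 39 of 48 below 0 and 15 lower at an unadjusted p under 0.05 (6.71% of all genes). Erythroid markers had a median of -0.64, sebocyte markers of -0.39 and adipocyte markers of -0.25, and their part in the result was not tested. Total counts were 201053 to 1333463 (median 988164) in control mice and 999908 to 2264027 (median 1286938) in scratched mice, and the Nduf median was -0.16 without control replicate 3 and -0.18 with RIN as covariate. In the 7 d scratched group the score was 7.33 in the 5 mice of pool 4 and 7.51 in the 3 mice of pool 5. Over the mice left out in turn, the Nduf median was lowest without scratched replicate 2 (-0.23) and highest without control replicate 4 (-0.14).

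At 7 d the scratched and intact groups under nZnO, and those under nAg, were both divided over pools 4 and 5. The main fits for them hold no pool term. With pool as covariate the Nduf median was -0.16 for nZnO, with 44 of 48 below 0. For nAg it was -0.08, with 40 of 48 below 0. The values that follow are those without the pool term. In the nZnO comparison the Nduf median was -0.15, against -0.005 for all genes, with 44 of 48 below 0. At an unadjusted p under 0.05, 16 were lower and 0 higher, where 7.88% of all genes were lower, and 0 were called. DESeq2 called 0 as well, because its calls also need a minimum fold change. Its adjusted p was 0.0121 for Ndufb2 (log2 fold change -0.26) and 0.0202 for Ndufs6 (log2 fold change -0.23). Both fold changes were too small for a call. All 10 genes of the N module, all 6 of the Q module, all 8 tested of the PP module and all 11 of the PD module lay below 0, with medians of -0.18, -0.12, -0.18 and -0.15. The assembly factors were divided, with 4 below 0 and 4 above and a median of -0.001.

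Ndufb2, a small PD module subunit on chromosome 6 from 39569490 to 39595671, was at 372, 433 and 476 CPM in 7 d intact nZnO mice and at 318, 358 and 396 CPM in 7 d scratched nZnO mice. All but 1 of the scratched mice were below every intact mouse. The log2 fold change was -0.26 (SE 0.07, edgeR adjusted p = 0.0834). Ndufs6, the zinc-binding N module subunit on chromosome 13 from 73464968 to 73476661, was at 415, 431 and 490 CPM in intact and at 338, 390 and 418 CPM in scratched nZnO mice, which overlapped by a single scratched mouse. The log2 fold change was -0.23 (SE 0.07, edgeR adjusted p = 0.109). Ndufb3 of the PD module and Ndufa3 of the PP module had -0.27 (adjusted p = 0.117) and -0.26 (adjusted p = 0.125), with 4 of 8 scratched mice below all intact mice for each. Ndufb5 was at -0.24, Ndufb9 at -0.23 and Ndufb8 at -0.15, with adjusted p-values of 0.223, 0.178 and 0.402.

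The score was 7.51 ± 0.13 in the 7 d intact nZnO group and 7.37 ± 0.06 in the 7 d scratched nZnO group (SD, n = 8 each), with 4 of 8 scratched mice below all intact mice and 5 of 8 intact mice above all scratched mice. The muscle markers differed in the same direction and by more. Their sum was at 848, 6744 and 19304 CPM in intact and at 142, 1678 and 13765 CPM in scratched nZnO mice, and their median log2 fold change was -1.58, with 14 of 14 below 0, 12 at an unadjusted p under 0.05 and 0 called. With the muscle score as covariate the Nduf median was -0.07, with 36 of 48 below 0 and 6 lower at an unadjusted p under 0.05 (5.94% of all genes). Erythroid markers had a median of -0.55 with 3 of 3 below 0, and macrophage markers of 0.30 with 5 of 5 above 0, with 0 called in either list. Without intact nZnO replicate 7, whose treatment text names scratching, the median was -0.13.

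The Nduf medians for scratched against intact skin at 7 d lay nearer to 0 under nAg and nTiO2 than under nZnO. No difference between the materials was tested. Under nAg at 7 d the Nduf median was -0.08, with 40 of 48 below 0 and 6 lower at an unadjusted p under 0.05 (5.79% of all genes), and 0 were called by edgeR or DESeq2. Ndufb4 of the PD module had the smallest p, at 46.2, 54.5 and 92.6 CPM in intact nAg mice and 38.5, 49.0 and 57.2 CPM in scratched nAg mice, with 3 of 8 scratched mice below all intact mice and a log2 fold change of -0.36 (adjusted p = 0.232). The other 3 of the smallest p were Ndufs5-ps at -0.20 (adjusted p = 0.282), Ndufb2 at -0.21 (0.309) and Ndufa4l2 at -0.60 (0.328). Ndufb5, Ndufb8 and Ndufb9 were at -0.10, -0.04 and -0.05. The muscle markers had a median of -0.18, the adipocyte markers of -0.34 (8 of 9 below 0) and the macrophage markers of 0.34 (5 of 5 above 0), with 0 called in these lists, and the Nduf median was -0.05 with the muscle score as covariate.

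Under nTiO2 at 7 d, where the groups share no pool, the Nduf median was -0.01, with 25 of 48 below 0. At an unadjusted p under 0.05, 0 were lower (5.95% of all genes were) and 2 higher, Ndufs5-ps at 0.29 (adjusted p = 0.313) and the assembly factor Ndufaf4 at 0.23 (adjusted p = 0.358). The groups overlapped in both. Ndufb10 was at 0.16 (adjusted p = 0.497) and Ndufa4 at -0.18 (adjusted p = 0.544), while Ndufb5, Ndufb8 and Ndufb9 were at -0.11, 0.08 and 0.05, with 1 scratched nTiO2 mouse at 1233 CPM of Ndufb8 and the others between 555 and 748 CPM. The muscle markers lay above 0 here (15 of 15), with a median of 0.47, the adipocyte markers were at -0.27 (8 of 9 below 0) and the macrophage markers at 0.18 (4 of 5 above 0), with 0 called.

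Across the 5 comparisons of scratched with unscratched skin at 7 d (PBS, nothing, nTiO2, nZnO and nAg), which share no mice, 18 of 48 genes were below 0 in all 5. Ndufb5 had -0.45, -0.21, -0.11, -0.24 and -0.10 in that order, Ndufb11 had -0.41, -0.19, -0.07, -0.28 and -0.13, and Ndufb2 had -0.28, -0.09, -0.05, -0.26 and -0.21. All 3 are PD module subunits. The 18 also held genes of the N module (Ndufv2), the Q module (Ndufa5) and the PP module (Ndufc1), among others. A further 15 genes were below 0 in 4 of the comparisons, 9 in 3 and 6 in 2. The share of all genes below 0 in all 5 is not given here, so these counts show no trait particular to the Nduf genes. None of these genes was called by edgeR in any of the 5. All the scratched groups here were in pools 4 and 5. The 7 d control and 7 d intact nTiO2 mice were not, and of the naive mice only 1 was. In the PBS, nothing and nTiO2 comparisons scratching and pool therefore cannot be told apart, and the signs are not separate evidence.

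**Figure D4:**
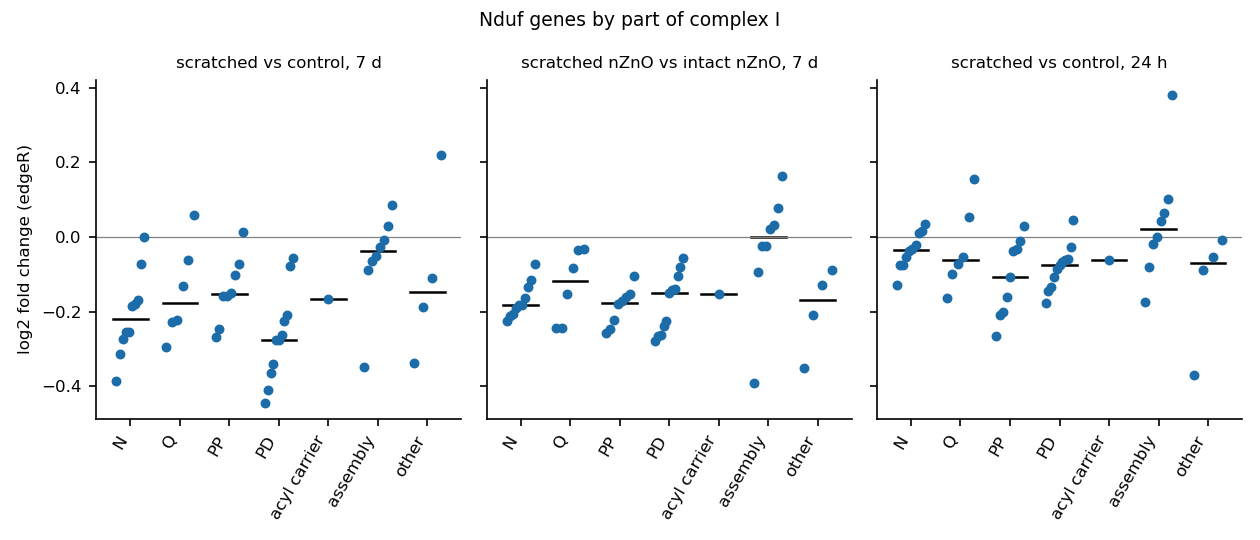
Log2 fold change of each Nduf gene tested (points) by part of complex I in 3 comparisons, with the median of each part (lines). In the first 2 panels (7 d) nearly all subunits lie below 0, with a PD module median of -0.28 for scratched versus control, and the assembly factors lie on both sides of 0.

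The 7 d control group, the reference above, was also compared with naive mice. Most Nduf genes had higher levels in it, with a median of 0.15 against -0.001 for all genes, 43 of 48 above 0 and 8 higher at an unadjusted p under 0.05 (3.67% of all genes), and 0 were called by edgeR or DESeq2. Ndufa12 had 0.27 and Ndufb5 0.31 (adjusted p = 0.49 for both). With pool as covariate, where only the mice of pool 1 bear on the difference, the median was 0.22. The muscle markers had a median of 0.94 with 15 of 15 above 0 and the erythroid markers of 0.56 with 3 of 3 above 0, with 0 called in either list. At an unadjusted p under 0.05 there were 0 muscle and 3 erythroid markers, and the Nduf median was 0.13 with the muscle score as covariate and 0.10 without control replicate 3. The 7 d scratched only group, compared with the same naive mice, had an Nduf median of -0.08 with 38 of 48 below 0, which became 0.02 with pool as covariate, where only the single naive mouse of pool 5 bears on it. There the muscle markers had a median of -0.99 with 14 of 14 below 0 and 0 called.

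At 24 h scratched and control skin differed less in these genes. The Nduf median was -0.06, against -0.007 for all genes, with 37 of 49 below 0. At an unadjusted p under 0.05, 1 gene was lower, where 9.16% of all genes were, and 0 were called by edgeR or DESeq2. This was Ndufa13, a PP module subunit also known as a regulator of cell death, on chromosome 8 from 70346808 to 70355872. It was at 396, 501 and 540 CPM in control mice and at 362, 426 and 482 CPM in scratched mice, with 2 of 8 scratched mice below all control mice, and its log2 fold change was -0.21 (SE 0.08, adjusted p = 0.183). Ndufb10 followed at -0.18 (adjusted p = 0.287), then Ndufs7, a core Q module subunit, at -0.16 (0.417) and the assembly factor Ndufaf6 at 0.38 (0.418), with overlapping groups in each. Ndufb5, Ndufb8 and Ndufb9 were at -0.09, 0.04 and -0.07. In pool 1, which holds mice of both groups, the Nduf median was -0.09. The muscle markers had a median of -1.05 (15 of 15 below 0, 0 called), the sebocyte markers of -0.58 (5 of 5 below 0, 1 called), the adipocyte markers of -0.50 (9 of 9 below 0, 1 called) and the macrophage markers of 0.29 (5 of 5 above 0, 0 called). Their part in the result was not tested.

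The difference between the 2 times was tested as an interaction over the 4 groups. Of these, only the 7 d scratched group was in pools 4 and 5, so the interaction and pool cannot be told apart. No Nduf gene was called, where 0.394% of all genes were. The median of the 49 interaction terms was -0.12, with 37 below 0 and 8 lower at an unadjusted p under 0.05, where 7.19% of all genes were. The smallest p belonged to Ndufb8 at -0.39 (SE 0.13, adjusted p = 0.153). A different effect of scratching at the 2 times was thus not shown for any single Nduf gene.

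Nanomaterials on intact skin were compared with PBS at the same time, and the 3 comparisons at a time share their control mice. At 24 h the Nduf medians were -0.04 for nTiO2, -0.07 for nZnO and -0.12 for nAg. At 7 d they were -0.10, -0.08 and -0.03. DESeq2 called 1 gene in these 6 comparisons, Ndufa4l2 under nAg at 24 h (log2 fold change -1.19, adjusted p = 0.0353), where it called 0.120% of all genes as lower. It was at 7.45, 12.1 and 15.3 CPM in 24 h control mice and at 3.45, 4.74 and 9.10 CPM in 24 h intact nAg mice, and the median nAg mouse lay below every control mouse, though the groups overlapped. With edgeR its log2 fold change was -1.17 (SE 0.22, adjusted p = 0.103). Its mean level is among the lowest of the 49 genes, and its group means differed by as much as 3.03 times. On scratched skin the medians against scratched and PBS were -0.04, -0.01 and -0.01 at 24 h and 0.07, -0.03 and 0.06 at 7 d, for nTiO2, nZnO and nAg.

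Variation over all 19 groups was tested in 1 model. Without pool in it, 14 of 49 Nduf genes were called at an adjusted p under 0.05, against 34.0% of all genes. With pool in it, 7 of 49 were called, against 20.6% of all genes. Only the single naive mouse of pool 5 joins pools 4 and 5 to pools 1 to 3. Contrasts between those 2 sets of pools rest on that mouse and are not freed of pool. In both fits the share of Nduf genes called lay somewhat below that of all genes, and this difference was not tested. The 7 were Ndufb10, Ndufb2, Ndufb9 and Ndufb1 of the PD module, Ndufa13 of the PP module, Ndufs4 of the N module and Ndufa5 of the Q module. Ndufb10 had the smallest adjusted p (0.000725), with group means from 321 CPM in the 7 d scratched only group to 415 CPM in the 7 d scratched nTiO2 group. Ndufa13 had group means from 403 CPM in the 7 d scratched only group to 523 CPM in the 7 d control group (adjusted p = 0.00151). These means are not adjusted for pool, and the 7 d scratched only and 7 d control groups share no pool. When the muscle score was added to the model with pool, 1 gene was called (18.1% of all genes). Without 7 d control replicate 3, 3 were (20.7% of all genes).

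Pool itself was tested within groups, and 9 of 49 Nduf genes were called, against 2.09% of all genes. Ndufa3 had the smallest adjusted p (0.00288), with medians of 241, 272, 284, 290 and 263 CPM in pools 1 to 5. Ndufv2, a core subunit of the N module that holds an iron-sulfur cluster, had a median of 372 CPM in pool 4 and 449 CPM in pool 5, and the fitted difference was 0.27 on the log2 scale. Ndufc2 of the PP module differed in the same direction by 0.19 and Ndufs5-ps by 0.19. The others were Ndufb1, Ndufa1, Ndufs3, Ndufaf5 and Ndufb4. Without the mice of pools 4 and 5, 0 of 49 were called (0.0800% of all genes). In the 7 groups held by these pools the score was higher in pool 5 than in pool 4 in 6 groups, and the muscle score was also higher in 6. The mean scores were 7.42 in 32 mice of pool 4 and 7.48 in 24 mice of pool 5, and the mean muscle scores were 6.47 and 7.88.

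Mice of a group also differed among themselves, and the muscle markers moved with that. In a model with group and pool, 21 of 49 Nduf genes were called with a positive slope on the muscle score and 0 with a negative one, against 4.33% of all genes with a positive slope. The median slope was 0.03 per unit of log2 muscle score, against -0.004 for all genes, and the muscle score ran from 2.51 to 9.85. Ndufaf5, which hydroxylates Ndufs7 during assembly, had by far the steepest slope, 0.14 (SE 0.02, adjusted p = 2.71e-12). Over the 153 mice it ranged from 11.5 to 62.6 CPM. Ndufs7 itself had 0.06 (adjusted p = 6.24e-08), and among the next in order of p were the core subunit Ndufv1 with 0.05 and the accessory subunits Ndufa10 and Ndufa9 with 0.06 and 0.05. With the mice of pools 1 to 3 alone 8 of 49 genes were called with a positive slope (2.14% of all genes), and with those of pools 4 and 5 alone 19 of 48 (3.93% of all genes).

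Slopes on library size and on RNA quality were fitted in the same way. Per doubling of the total count, 14 of 49 genes were called with a negative slope and 0 with a positive one, against 4.08% of all genes with a negative slope. Ndufa4 had -0.43 (SE 0.02, adjusted p = 1.46e-36). It was at 3360 CPM, from 574 counts, in the mouse with the lowest total and at 1102 CPM, from 4942 counts, in the mouse with the highest. Ndufa6 had -0.21, Ndufc1 -0.17 and Ndufb8 -0.16, and these are the 4 most abundant Nduf genes. Without those 2 mice 15 genes were called with a negative slope (4.52% of all genes). On RIN, 0 of 49 genes were called by edgeR, against 0% of all genes, and 3 had an unadjusted p under 0.05. DESeq2 and voom were not run on the slopes.

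**Figure D5:**
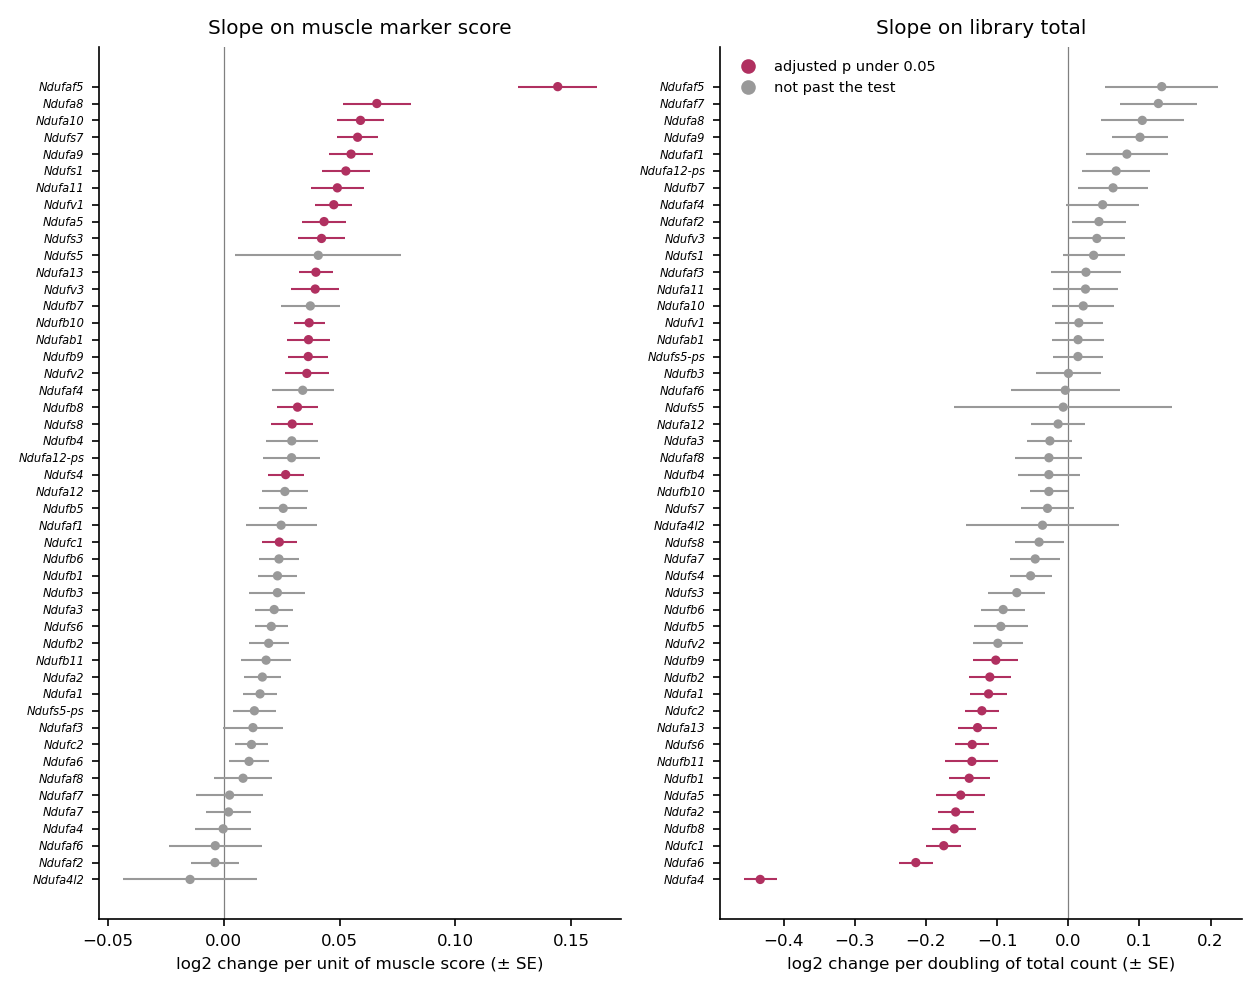
Slopes (± SE) of 48 of the Nduf genes on the muscle marker score (left, log2 change per unit of score) and on the total count of the library (right, log2 change per doubling), within groups and pools. Coloured genes passed an adjusted p under 0.05, with Ndufaf5 at 0.14 on the left and Ndufa4 at -0.43 on the right.

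Other respiratory genes were divided by list. In scratched against control skin at 7 d, 5 of the 7 mitochondrial mt-Nd genes were tested, with mt-Nd1 and mt-Nd4 at -0.48, mt-Nd2 at -0.38, mt-Nd5 at -0.37 and mt-Nd6 at -0.01, and 0 called. Nuclear genes of complex II had a median of -0.10 (4 of 4 below 0), of complex III -0.19 (8 of 9), of complex IV -0.27 (12 of 13) and of complex V -0.22 (10 of 13). Other complex I assembly factors had -0.04 (6 of 9) and the regulators of mitochondrial genes, such as Ppargc1a and Tfam, 0.06 (4 of 12). No gene of these lists was called in that comparison, in which 0 of all genes were called by edgeR. In scratched nZnO against intact nZnO skin at 7 d, mt-Nd5 was lower (log2 fold change -0.47, adjusted p = 0.0378), and complexes III, IV and V had medians of -0.16, -0.20 and -0.17. Complex II was at -0.02 with 2 of 4 below 0, and 0 genes of these 4 complexes were called. The mitochondrial share of counts was 2.60% in the mouse with the lowest total and 0.66% in that with the highest. Median totals were 1051343.5 in 7 d intact nZnO and 1227035 in 7 d scratched nZnO mice. The part of library size in the mt-Nd values was not tested.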

How the data were processed

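The authors aligned 3′ reads (read 2 of 62 bp) to GRCm39 with STAR and counted unique molecular identifiers per gene. The deposited table holds these raw counts for 36716 genes in 153 mice. The deposited barcode sheet gives a quality score of each RNA (RIN), and the deposited sample sheet gives the pool number. The labels name only the 5 pools, so each mouse's group and replicate number were read from its name in the count table.

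The counts were tested with edgeR 4.0.16 in R 4.3.3 (TMM, quasi-likelihood test, Benjamini-Hochberg adjustment over all genes tested), on genes exceeding 5 counts in 75% or more of the mice in 1 of the groups compared. CPM used TMM-scaled library sizes, log2 CPM a prior count of 2. Alternatives used DESeq2 1.42.0, limma 3.58.1, other filters, scalings and covariates, and each mouse left out. The windows of 62 bases were searched in the genome with minimap2 2.31-r1302. Each gene and its pseudogene were aligned by local pairwise alignment. Positions are those of Gencode M39, later than the counting annotation. The code was tested on simulated data.

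Named genes are the 3 the study names, those called, and those of smallest p or of highest, middle and lowest level. Ndufb11 and Ndufb2 in the side-by-side values, Ndufaf4 at its motif and the overlapping loci were named after their values were seen. Members and lists were chosen with earlier results of these data known. P-values measure the spread between mice as separate animals, with cage not modelled. The values of a single Nduf gene are not reported here, and it is left out of the plot of slopes but kept in all counts and medians.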

Additional observations from a re-analysis of the deposited data

Results flagged for a closer look

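Each named gene was checked in the groups whose values are given, 85 sets of mice in all, for a mouse far from the others by Dixon's test, and 4 were found. Chance alone gives about 1 in 20 such sets. Ndufb11 stood at 637.9 CPM in 7 d scratched replicate 2, while the other 7 mice lay between 362 and 486 CPM. This mouse is in pool 5 and has the highest muscle score of its group, 9.85. Ndufb8 stood at 1233 CPM in 7 d scratched nTiO2 replicate 4 (pool 4), from 888 counts, while the others lay between 555 and 748 CPM. Ndufb5 stood at 531.7 CPM in 7 d intact nTiO2 replicate 6 (pool 3), with the others between 329.6 and 402 CPM. Ndufaf4 stood at 65.5 CPM in 7 d intact nTiO2 replicate 4 (pool 2), with the others between 47.9 and 56.0 CPM. The score of the 49 genes had no such mouse in any group.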

How the results depend on the processing

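In the 26 comparisons and the interaction, 0 Nduf genes were called under every alternative except DESeq2, which called 4 for scratched versus control at 7 d and 1 for intact nAg versus control at 24 h. Leaving out each mouse in turn gave 0 calls in scratched versus control at both times (lowest 0, highest 0). For pool within groups, 0 genes were called without mice of pools 4 and 5. With pool in the model, the count over all groups was 3 without 7 d control replicate 3 and 9 without naive replicate 9, 4 without mice of pools 4 and 5 and 1 with the muscle score in the model. The count of slopes on the muscle score was 8 without mice of pools 4 and 5. The log2 fold change of Ndufb8 changed sign for scratched versus control at 24 h without 24 h control replicate 2 (-0.00060, against at most 0.084 with another mouse left out) and for scratched nTiO2 versus intact nTiO2 at 7 d under limma voom (-0.027). The cause was not tested. The Nduf median kept its sign under all alternatives run for scratched versus control at both times. It changed sign with no filter for intact nAg versus control at 7 d (0.003), scratched nAg versus scratched at 24 h (0.008) and scratched nTiO2 versus intact nTiO2 at 7 d (0.01), and with pool as covariate for scratched nZnO versus intact nZnO at 24 h (0.02, and 0.01 under voom) and for scratched only versus naive at 24 h (-0.02) and 7 d (0.02).

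Replicate numbers come from the count table. Deviations of same-numbered control and scratched mice correlated at -0.18 to 0.36 at 24 h and -0.29 to 0.01 at 7 d. Of the 8 pairs at each time, 3 matched best with their own number at 24 h and 0 at 7 d. These values do not show a pairing of mice by number and cannot exclude one. With the replicate block 0 Nduf genes were called, and the medians were -0.05 and -0.18. The alternatives with the muscle score outside scratched versus control, without replicate 7 of 7 d intact nZnO, without naive replicate 9, without the extreme libraries, with other pools for the muscle slope and for the fits over all groups were chosen after seeing the data. Genes of low level, such as Ndufs5, are limited by counting.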
